A study of Mus musculus with 236 samples.

Results

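The genes described here are Mcm2, Mcm3, Mcm4, Mcm5, Mcm6 and Mcm7, which encode the subunits of the replicative helicase, with Mcm10 and Hells. They were taken by name, with no measured value in the rule, and are 8 of 39300 genes in the deposited expression table. Earlier results of these data were known when they were chosen. The cells belong to 1 line of female mESCs (mouse embryonic stem cells), made from blastocysts of a C57BL/6J mother and a CAST/EiJ father. HiRES, which reads chromatin contacts and RNA from the same single cell, was applied at 2 times after withdrawal of LIF and of the MEK and GSK3 inhibitors (2i). Of 406 cells in the expression table, the d25 group, 2.5 days after withdrawal, held 82 cells labelled G1, 15 Early-S, 62 Mid-S, 17 Late-S, 18 G2, 7 M and 4 G0. The d05 group, 0.5 days after withdrawal, held 41 cells labelled G1, 32 Early-S, 87 Mid-S, 20 Late-S, 6 G2 and 15 M. Both groups were therefore already out of 2i and LIF, both were plated on fibronectin in serum medium, and no undifferentiated group is used here. No separate cultures are named in the labels. Each day therefore counts as 1 sample, and no test between days or classes was possible.

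Before a cell replicates its DNA, the origin recognition complex with Cdc6 and Cdt1 loads rings of Mcm2 to Mcm7 onto chromatin, which is the licensing step of late mitosis and G1. In S phase the rings are activated as the helicase that unwinds DNA ahead of the polymerases, and Mcm10 acts at this activation. Transcription of these genes is known to be driven by E2F factors around the G1 to S transition, and embryonic stem cells, with their short G1, are known to load large numbers of these rings. Hells, also called Lsh, is a chromatin remodeller of the SNF2 family that is needed for normal DNA methylation at repeats, and its gene is also induced with the S phase genes.

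Most of the genes hold a spelling of the E2F binding site in their promoter, a feature that was not used to choose them, and the windows with it are shown because E2F factors are known to drive these genes. Among the RefSeq promoters of GRCm38.p6, from 250 bases before to 50 bases after a gene's start, 7 of the 8 genes have an entry, all but Mcm4. The words searched on both strands were TTTGGCGC, TTTCCCGC, TTTCGCGC and TTTGCCGC, spellings of the E2F binding site. Of 32851 promoters, 2.26% hold at least 1 of them, against 5 of the 8 promoters of these 7 genes. Counted by gene, 5 of the 7 have a promoter with such a word. In the windows of 30 bases below, 5′ to 3′ on the gene's strand, capitals mark these words or their reverse complement, and where capitals run past 8 letters a word overlaps the reverse complement of another.
Mcm3, chr1:20820265-20820294, minus strand: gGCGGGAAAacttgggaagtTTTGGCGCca
Mcm5, chr8:75109347-75109376, plus strand: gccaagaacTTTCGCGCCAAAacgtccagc
Mcm6, chr1:128359795-128359824, minus strand: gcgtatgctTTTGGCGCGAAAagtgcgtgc
Mcm7, chr5:138172030-138172059, minus strand: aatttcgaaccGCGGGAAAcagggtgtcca
Hells, chr19:38930917-38930946, plus strand: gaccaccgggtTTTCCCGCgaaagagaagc

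The words lay at different distances from the annotated start. In Hells the word began 62 bases before the start (position -62), in Mcm6 it began at -110 with a further one at -47, and in Mcm3 the words lay at 19 and 38 bases after the start. In Mcm5 the overlapping words began at -153 and -149. Mcm7 has 2 annotated starts, and the words, at -165 and 16 bases after the start, were found only at the one whose window is shown. CCAAT, bound by NF-Y, was present on either strand in 6 of the 7 genes, all but Hells, and in 7 of their 8 promoters, against 37.4% of all promoters. TTTGAA, the core of the element of genes transcribed in G2 and M, was present in 1 of the 8 promoters, that of Mcm2, against 17.9% of all promoters. In Mcm2 and Mcm10 none of the E2F words lay in the window. These matches describe letters in fixed windows and no binding was measured.

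The genes lie on 7 chromosomes and all but one are free of annotated overlap. On GRCm38 they span chr6:88883474-88898780 (Mcm2), chr1:20802966-20820312 (Mcm3), chr16:15623897-15637400 (Mcm4), chr8:75109468-75128439 (Mcm5), chr1:128331575-128359705 (Mcm6), chr5:138164583-138172111 (Mcm7), chr2:4990724-5012791 (Mcm10) and chr19:38930262-38970470 (Hells). Mcm7 overlaps the microRNA genes Mir25, Mir93 and Mir106b and 91 bases of Ap4m1, which stood at 21.97 CPM in d25 and 57.8 CPM in d05 cells. CPM is a gene's count of unique molecular identifiers (UMIs), added up within a group of cells and scaled to the same total in every group. The assignment of reads in an overlap is not known from the labels or headers, which makes the Mcm7 level less certain than the others.

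Depth and composition differed between the groups. Cells had a median of 15796 UMIs (range 529 to 29275) in d25 and 13670 (range 501 to 23213) in d05, and summed UMIs were 3186073 and 2655980 in d25 and d05. Exons held 24.2% of the UMIs in d25 and 26.3% in d05, so most UMIs over all genes lay outside exons. The share on exons was not measured for single genes. Cells carry 1 of 3 batch labels, whose meaning is not given, and batch 2 held both days. The other 83 d25 cells were in batch 3 and the other 80 d05 cells in batch 1, so values within batch 2 are given beside the pooled ones. No cell name occurred in more than 1 library. All 8 pluripotency markers were detected on both days, at 275 CPM summed in d25 and 1044 CPM in d05 cells. Of 6 fibroblast markers, 4 were detected in d25 and 3 in d05 cells, at 5.34 and 7.15 CPM summed in d25 and d05, with Acta2 at 0 on both days and Col1a1 at 0 in d25.

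The cell cycle class of each cell is the authors' cellcycle_threshold label, whose definition is not given, and it goes partly against the names it uses. The 22 cells labelled M had the highest score for S phase genes, with a median of 0.441 against 0.196 in the G1 cells and -0.0892 in the 24 G2 cells. Cells labelled M had 1.31% to 4.59% of their contacts between chromosomes, a range low among these cells. A list of 20 genes of G2 and M, such as Tpx2 and Cenpe of the spindle and kinetochore, was higher than in G1 for 18 members in Mid-S cells of d25, at a CPM ratio of at least 1.5 that 12.1% of all genes passed. Genes of that list were also higher than in G1 in cells labelled M. These were 8 of 15 measured genes in d25 (35.1% of all genes called higher) and 11 of 14 in d05 (30.3%). Because the labels go only partly with their names, they are used as names of groups and not as phases. The S phase list in wide use for such scores holds Mcm4, Mcm5, Mcm6 and Hells and, by version, Mcm2 or Mcm7, but neither Mcm3 nor Mcm10. If the authors' score used it and set the class, the levels of those genes by class are partly built in, so the levels by class are given as a description. The same limit holds for the other replication genes compared below, some of which such a list may also hold.

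Between the days the change of each helicase gene stayed short of the rule given below. Summed over cells, Mcm2 to Mcm7 together stood at 358 CPM (95% Poisson interval 338 to 380) in d25 and 432 CPM (407 to 457) in d05 cells. A gene was called higher or lower where the CPM ratio of d25 over d05 passed 1.5 or its inverse with at least 20 UMIs over both groups. By that rule 0 of the 8 genes were called in either direction, while 21.4% of 13777 genes were called higher and 25.6% lower. Those shares were not matched to the depth of the 8 genes, of which Mcm7 had the fewest UMIs, 78 in d25 and 73.5 in d05. The median log2 change of the 8 genes, with 5 CPM added to each level, was -0.23, against -0.06 over all genes compared. Intervals cover counting error only, and cells of a group are not replicates.

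Hells had the most UMIs of the genes and the narrowest interval. Hells stood at 694 CPM (666 to 724) in d25 and 889 CPM (853 to 925) in d05 cells, a ratio of 0.781 (0.737 to 0.828). Mcm6, the subunit with the most UMIs, stood at 132.1 CPM in d25 and 185.4 CPM in d05 cells, a ratio of 0.713 (0.625 to 0.814). Mcm2, an outer subunit that also binds histones H3 and H4, stood at 29.5 CPM in d25 and 42.5 CPM in d05 cells, a ratio of 0.693 (0.522 to 0.920). These 3 genes and Mcm10, at 101.4 CPM in d25 and 124.2 CPM in d05 cells, were the 4 whose counting interval left out a ratio of 1.

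The remaining subunits differed less than their counting error. Mcm4 stood at 66.9 CPM in d25 and 76.8 CPM in d05 cells, and its ratio of 0.870 had an interval of 0.715 to 1.06. Mcm3 had 47.4 CPM in d25 and 50.3 CPM in d05 cells. Mcm7 had 24.5 CPM in d25 and 27.7 CPM in d05 cells, the lowest level of the set on both days. Mcm5 was the only one with more in d25, at 57.8 CPM against 48.9 CPM in d05 cells, with an interval of the ratio of 0.937 to 1.49. A scaling by median-ratio size factors shifted every log2 day change by 0.18. Under it Mcm3 stood at a ratio of 1.07 and 6 of the 8 genes, not 7, lay below 1. Of these 6, Mcm4 stood at 0.983 and Mcm7 at 0.9995. Mcm2, Mcm6, Mcm10 and Hells stood at 0.784, 0.805, 0.922 and 0.883. Counting intervals were not computed under this scaling, so which of them leave out 1 is known for CPM only.

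Within batch 2 the ratios of 7 of the 8 genes, all but Mcm5, lay farther below 1 than over all cells. Hells stood at 622 CPM in d25 and 918 CPM in d05 cells of batch 2, a ratio of 0.678 (0.625 to 0.735). In batch 2, Mcm6 stood at 130.7 CPM in d25 and 200.98 CPM in d05 cells, a ratio of 0.650. Mcm2 there had 28.7 CPM in d25 and 45.8 CPM in d05 cells, a ratio of 0.627, and these 2 genes passed the rule as lower, with 25.1% of 11328 genes called lower in that batch. The other batches held 1 day each: Mcm2 to Mcm7 summed to 366 CPM in the d25 cells of batch 3 and 390 CPM in the d05 cells of batch 1, against 352 CPM in d25 and 467 CPM in d05 cells of batch 2. The d05 batches thus differed by more than the d25 batches did. The part of the batch in the day difference was not tested beyond these values.

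Compared per kilobase of gene span, the order of the genes changed. Hells was highest, at 17.3 CPM per kb in d25 and 22.1 CPM per kb in d05 cells. Mcm4, Mcm6 and Mcm10 followed, between 4.59 and 4.95 CPM per kb in d25 and between 5.63 and 6.59 CPM per kb in d05 cells. Mcm7, Mcm5 and Mcm3 lay between 2.73 and 3.25 CPM per kb in d25 and between 2.58 and 3.68 CPM per kb in d05 cells, and Mcm2 stood at 1.93 CPM per kb in d25 and 2.78 in d05 cells. The subunits, which form a ring with 1 copy of each, were thus not at equal RNA levels on this scale. Span was used because most UMIs over all genes lay outside exons, and a scale per exon length was not computed.

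**Figure D1:**
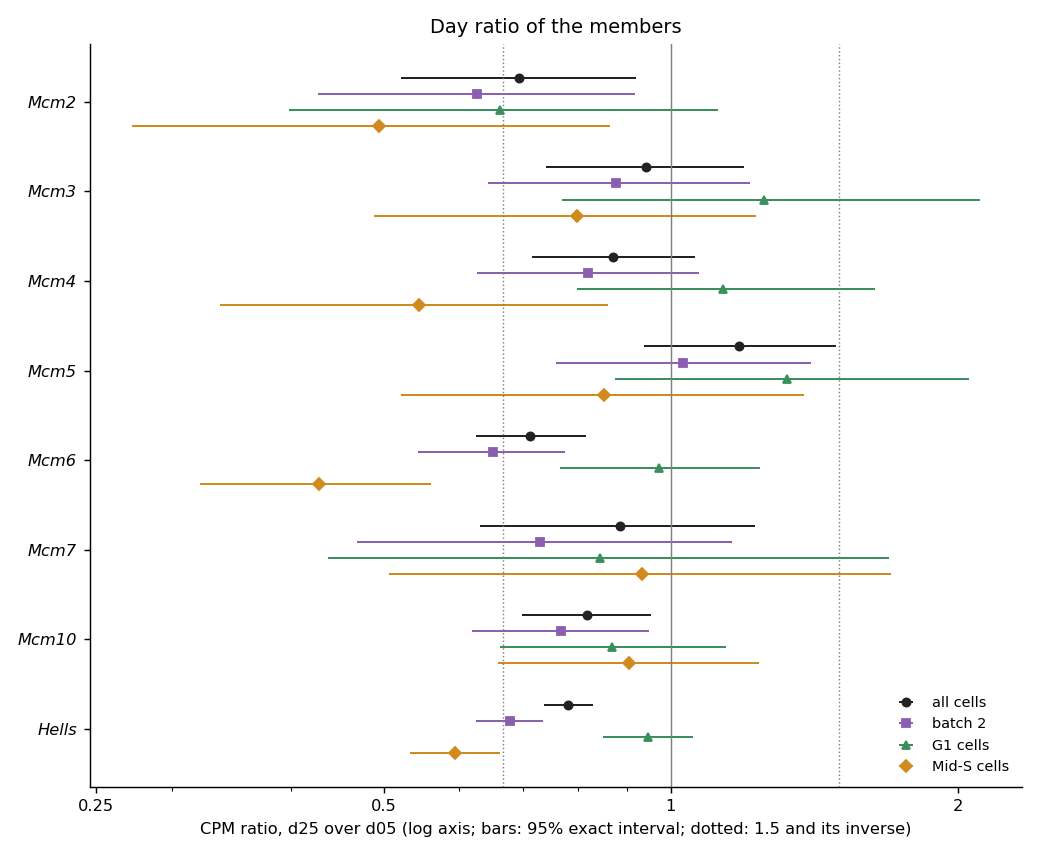
CPM ratio of d25 over d05 (log axis) for each of the 8 genes, over all cells, batch 2 cells, G1 cells and Mid-S cells, with exact 95% intervals for counting error as bars and dotted lines at 1.5 and its inverse. Over all cells every point lies between the dotted lines, while in Mid-S cells Mcm2, Mcm4, Mcm6 and Hells lie below the lower one.

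By class, the summed helicase genes were lowest in Mid-S and highest in cells labelled M, on both days. In d25, Mcm2 to Mcm7 summed to 504 CPM in G1, 291 in Early-S, 194.9 in Mid-S, 378 in Late-S, 313 in G2 and 1163 in M. In d05 they summed to 489 CPM in G1, 378 in Early-S, 341 in Mid-S, 488.5 in Late-S, 352 in G2 and 1266 in M. The M groups were small, with 7 d25 and 15 d05 cells, and shallow, with medians of 4819 and 5818 UMIs per cell in d25 and d05 M cells. Counted per cell without scaling, M cells of d05 still had the most, at 9.33 UMIs per cell against 5.93 in G1, whereas d25 M and G1 cells both had 7. A G0 class of 4 d25 cells stood at 427 CPM.

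**Figure D2:**
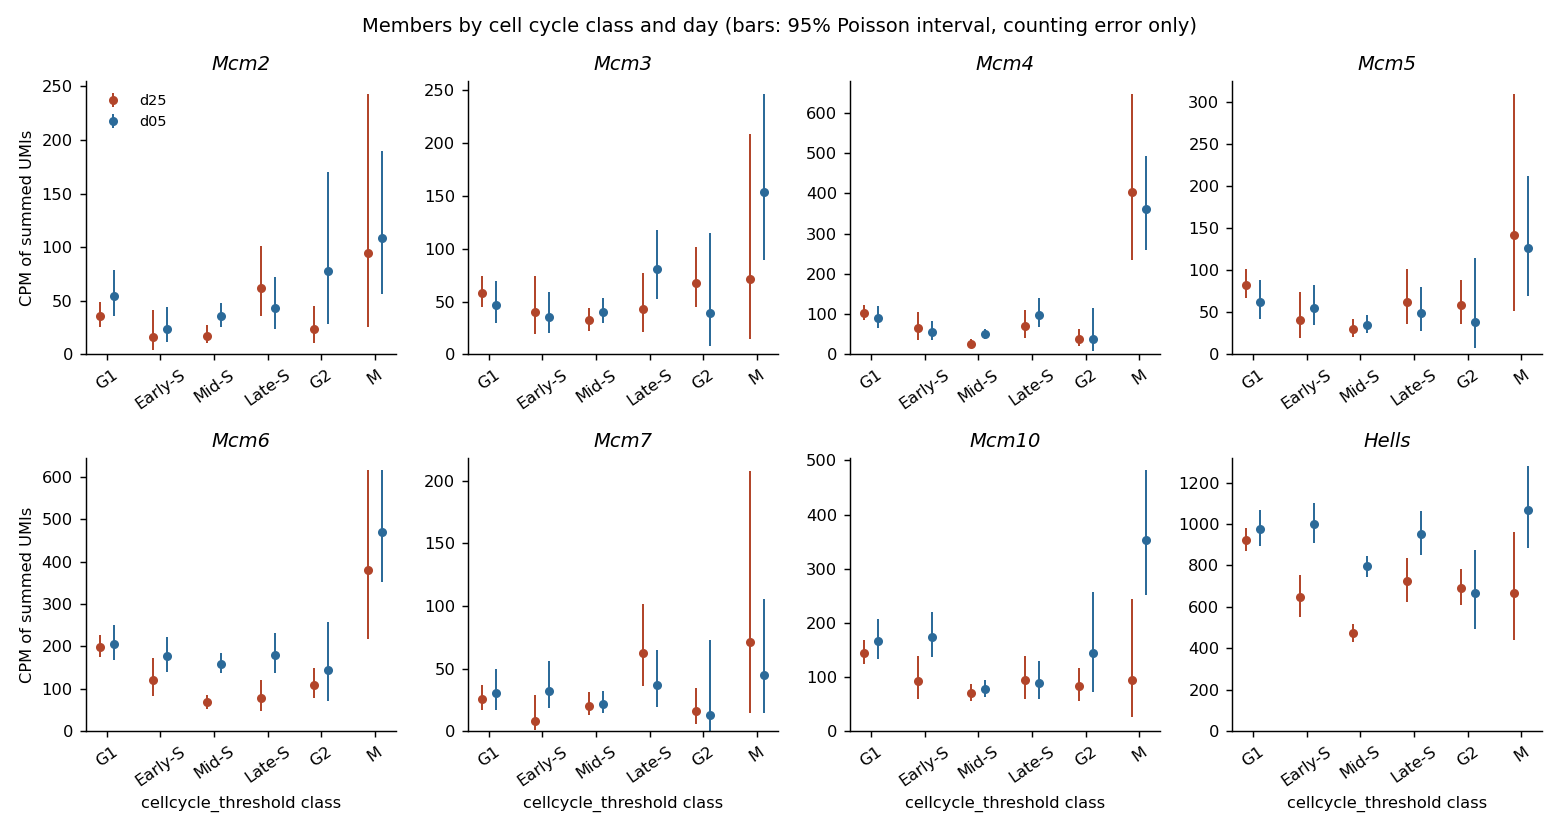
Level of each gene (CPM of summed UMIs) by cellcycle_threshold class, d25 left of d05 in each class, with 95% Poisson intervals as bars. Mcm4 stands out in M cells, at 404 CPM in d25 and 362 CPM in d05, and Hells in d25 falls to 473 CPM in Mid-S.

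In Mid-S cells of d25, 7 of the 8 genes were lower than in G1 by the ratio rule, against 18.8% of 9700 genes called lower. Mcm4 had the lowest ratio, with 26.98 CPM in Mid-S against 102.8 CPM in G1 cells, a ratio of 0.262 (0.168 to 0.397). Mcm6 had 67.9 CPM in Mid-S against 199.4 CPM in G1, and Mcm5, which pairs with Mcm2 at the gate of the ring, had 29.8 CPM against 82.6 CPM. Hells had 473 CPM in Mid-S against 924 CPM in G1 cells, a ratio of 0.512. Mcm7 was the gene not called, with 20.5 CPM in Mid-S against 25.5 CPM in G1 and an interval of the ratio of 0.440 to 1.45. The 7 genes included Mcm3 and Mcm10, which the S phase list in wide use does not hold, at ratios of 0.554 and 0.481. Over 10 day and class groups, Mcm3 and Mcm10 followed the mean of the other genes here at Pearson correlations of 0.76 and 0.84. Those groups include the d05 M cells, where Mcm3 (153.8 CPM) and Mcm10 (352.8 CPM) were highest, and correlations without that group were not computed. Whether the ratios of Mcm3 and Mcm10 are independent of an S phase score was not tested, and the genes of the authors' score are not given. No gene was called higher, with 12.1% of genes called higher.

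In Mid-S cells of d05, 4 of the 8 genes were lower than in G1, against 16.6% of 9010 genes called lower. Mcm10 had the lowest ratio there, with 77.2 CPM in Mid-S against 167.1 CPM in G1 cells. Mcm2, Mcm4 and Mcm5 were the others called, at ratios of 0.658, 0.547 and 0.560. Mcm2 had 35.8 CPM in Mid-S against 54.4 CPM in G1, but thinning every cell to 5000 UMIs turned its ratio to 1.14. Hells was not called, with 796 CPM in Mid-S against 977 CPM in G1. The median log2 change of the 8 genes, Mid-S over G1, was -0.98 in d25 and -0.46 in d05, against -0.05 and -0.06 over all genes in d25 and d05.

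Early-S and Late-S gave less even pictures. In Early-S of d25, which held 15 cells, 6 of the 8 genes were lower than in G1 (24.4% of genes called lower). Of these 6, Mcm2 rested on 4 Early-S UMIs and Mcm7 on 2, and the intervals of Mcm2, Mcm4 and Mcm7 span 1. In Early-S of d05, with 32 cells, 2 were lower (13.7%). Mcm2 and Mcm4 were the 2 in d05. Hells had 649 CPM in Early-S against 924 CPM in G1 of d25, and 1002 CPM against 977 CPM in d05. In Late-S of d25, Mcm2 and Mcm7 were higher than in G1 (12.2% called higher) and Mcm6 and Mcm10 lower (22.9% called lower). Mcm7 there had 16 UMIs in 17 cells, or 62.4 CPM against 25.5 CPM in G1. Mcm2 there also had 16 UMIs, with an interval of the ratio of 0.908 to 3.16. In Late-S of d05, Mcm3 was higher (13.1% called higher) and Mcm10 lower (19% called lower).

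Cells labelled G2 numbered 18 in d25 and 6 in d05. In G2 of d25, 5 of the 8 genes were lower than in G1 (22.4% called lower), and Mcm3 had 67.9 CPM in G2 against 57.99 CPM in G1. Of the 5, Mcm2 rested on 9 G2 UMIs and Mcm7 on 6, and both intervals span 1. In G2 of d05, 2 of 7 genes with enough UMIs were lower (29.2% called lower). Mcm4 was lower in G2 on both days, at ratios of 0.362 in d25 and 0.432 in d05. The d05 value rests on 3 UMIs of Mcm4 in G2, and its interval runs to 1.35.

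In cells labelled M, 5 of the 8 genes were higher than in G1 in d25 (35.1% of 7800 genes called higher) and 6 in d05 (30.3% of 5840). In d25 a further 39.4% of all genes were called lower. There Mcm2, Mcm5 and Mcm7 rested on 4, 6 and 3 UMIs in M cells, and their intervals span 1. Intervals left out 1 for 2 of the 8 genes in d25 and 4 in d05. Mcm4 was the clearest, with 404 CPM in M against 102.8 CPM in G1 of d25, a ratio of 3.93 (2.21 to 6.56), and 362 CPM against 90.6 CPM in d05, a ratio of 3.99 (2.54 to 6.25). Mcm6 had 380 CPM in M against 199.4 CPM in G1 of d25, and 470 CPM against 205.4 CPM in d05. The d25 count fell to 2 genes without the 1 cell with the most UMIs of each gene in each group, and to 3 genes under size factors, which shifted every log2 change of that comparison by -0.59. In d05 the count was 5 without such cells and 6 under size factors, which shifted the log2 changes by -0.20.

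Hells was not called in M cells on either day. It had 665 CPM in M against 924 CPM in G1 of d25, and 1067 CPM against 977 CPM in d05. Mcm10 had 94.97 CPM in M against 144.97 CPM in G1 of d25, where it was called lower (39.4% called lower) on 4 UMIs, with an interval of the ratio of 0.176 to 1.71. That direction turned, to a ratio of 1.86, with both days summed. In d05 it had 353 CPM in M against 167.1 CPM in G1 and was called higher, at a ratio of 2.11 (1.40 to 3.12) beside 2.00 for Mcm2 and 2.29 for Mcm6. Of the M cells, 1 in d25 and 2 in d05 held under 1000 UMIs, with 53.5% and 63.6% of gene UMIs on exons in d25 and d05, and these 3 cells together held 3 UMIs of the 8 genes. Without them the counts of genes higher in M were 5 in d25 and 7 in d05.

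Among G1, Early-S, Mid-S and Late-S, the most genes were lower in d25 within Mid-S. There, 4 of the 8 genes were lower in d25 than in d05 cells (24.9% of 10007 genes called lower): Mcm2, Mcm4, Mcm6 and Hells. Mcm6 had 67.9 CPM in d25 and 158.95 CPM in d05 Mid-S cells, a ratio of 0.427 (0.321 to 0.560). Hells had 473 CPM in d25 and 796 CPM in d05 Mid-S cells, a ratio of 0.595 (0.533 to 0.662). The Mid-S cells of the days were not alike in other measures. Their median S score was -0.120 in d25 and 0.00566 in d05, their median G2M score 0.135 in d25 and 0.0663 in d05, and their median share of contacts between chromosomes 10.8% in d25 and 8.23% in d05. The list of 20 G2 and M genes had a median log2 change of 0.42 in d25 over d05 Mid-S cells, and the part of these differences in the gene levels was not tested. Mcm10 had 69.8 CPM in d25 and 77.2 CPM in d05 Mid-S cells. Within batch 2 alone, Mcm2, Mcm6 and Hells were lower in Mid-S (23.7% of 7810 genes called lower), at ratios of 0.398, 0.316 and 0.508, and Mcm4 was not called, at 0.732.

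Within G1 only Mcm2 was lower in d25 (24% of 9014 genes called lower), at 36.02 CPM in d25 and 54.4 CPM in d05 cells, with an interval of the ratio of 0.398 to 1.12. That is a smaller share of the 8 genes than of all genes. Mcm6 in G1 had 199.4 CPM in d25 and 205.4 CPM in d05 cells, and Hells 924 CPM in d25 and 977 CPM in d05 cells. In the G1 cells of batch 2, Mcm2 was lower (24.8% called lower), and Mcm3 and Mcm5 were higher (24.7% called higher) at ratios of 1.52 and 1.50, and the intervals of all 3 ratios span 1. For Mcm6 the counting interval of the day ratio was 0.321 to 0.560 in Mid-S and 0.765 to 1.24 in G1. For Hells it was 0.533 to 0.662 in Mid-S and 0.849 to 1.06 in G1. The Mid-S and G1 intervals of each other gene overlapped, as for Mcm2 at 0.272 to 0.864 and 0.398 to 1.12. These intervals leave out the spread between cells and between cultures, and whether the day ratio differs between Mid-S and G1 was not tested. In Early-S, Mcm10 and Hells were lower in d25 (2 of 6 genes with enough UMIs, with 28.8% called lower). In Late-S, Mcm3 and Mcm6 were lower (25.7% called lower) and Mcm7 higher (24.5% called higher). The Late-S intervals of Mcm3 (0.238 to 1.12) and Mcm7 (0.747 to 3.90) span 1.

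The mix of classes also differed between the days. Cells labelled G1 were 40.0% of d25 cells (Clopper-Pearson interval 33.2 to 47.1) and 20.4% of d05 cells (15.1 to 26.6). Mid-S cells were 30.2% of d25 and 43.3% of d05 cells, and M cells were 3.41% of d25 and 7.46% of d05 cells. Within batch 2, with nearly equal cell numbers on both days, G1 cells numbered 46 in d25 and 24 in d05. Mid-S cells there numbered 41 in d25 and 46 in d05, so the Mid-S difference was smaller than over all cells. The share of M cells is not given by batch. With both days weighted to the same class shares, 0 of the 8 genes passed the rule, and the ratios of Mcm6 and Hells were 0.698 and 0.757. Mcm10 was at 0.733 after weighting, against 0.816 before. Without the cells labelled M, no gene passed the rule either.

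The share of cells with a UMI separated the deeply sampled genes from the rest. Hells was found in 97.6% of d25 and 97.5% of d05 cells. Mcm6 was found in 71.7% of d25 cells (65.01 to 77.8) and 84.6% of d05 cells (78.8 to 89.3), and these intervals do not overlap. Mcm10 was found in 66.3% of d25 and 67.7% of d05 cells, and Mcm7 in 30.2% of d25 and 31.8% of d05 cells, the lowest shares. Genes that stem cells should lack, such as Myh6 of heart muscle and Ptprc of blood cells, were found in at most 3.41% of d25 and 2.99% of d05 cells, at the same median depths. All 8 genes were above that background on both days.

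After thinning each cell to 5000 UMIs, without the 7 shallower cells of each day, Hells was still in the most cells and Mcm7 in the fewest. Hells was then found in 89.9% of d25 and 96.4% of d05 cells. Mcm6 was found in 46.5% of d25 and 54.6% of d05 cells, with intervals that overlap (39.4 to 53.7 and 47.4 to 61.8 in d25 and d05). Mcm7 was found in 12.6% of d25 and 16.5% of d05 cells. In Mid-S, as deposited, 53.2% of d25 and 85.1% of d05 cells had a UMI of Mcm6, while in G1 these were 90.2% of d25 and 87.8% of d05 cells.

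Levels in single cells of a class spread widely, on few UMIs per cell. Over all Mid-S cells, Mcm2 to Mcm7 together had 3.38 UMIs per cell in d25 and 4.83 in d05. How much of the spread is counting error was not tested. Among cells with at least 5000 UMIs, the summed Mcm2 to Mcm7 level in G1 had a median of 503 CPM (quartiles 327 and 686) in 80 d25 cells and of 469 CPM (294 and 576) in 41 d05 cells. In Mid-S the median was 163.3 CPM (103.2 and 259) in 61 d25 cells and 316 CPM (214.7 and 452) in 87 d05 cells. The upper quartile of d25 Mid-S cells thus lay below the median of the d05 ones. In M, only 3 d25 cells and 9 d05 cells were this deep, and the lowest of them stood at 853 CPM in d25 and 600.2 CPM in d05. Hells in Mid-S had a median of 410 CPM in d25 and 778 CPM in d05 cells.

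**Figure D3:**
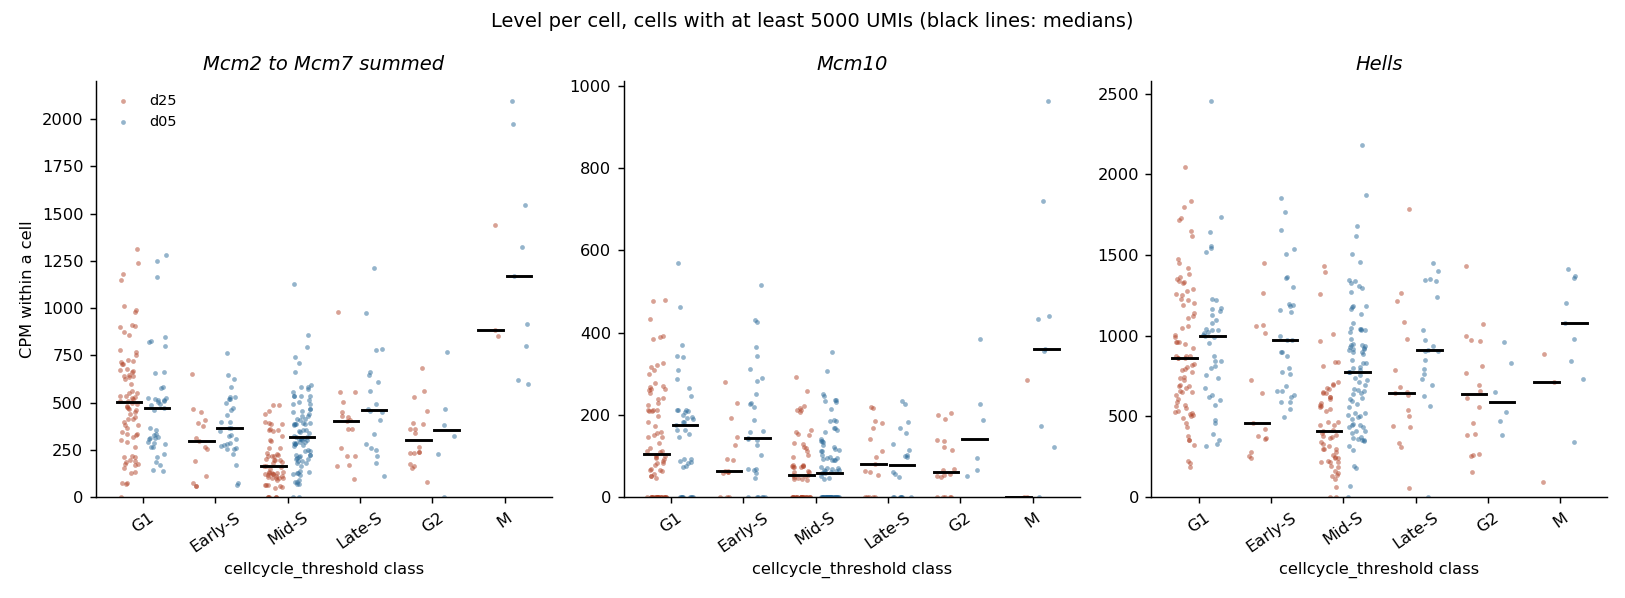
Level within each cell (CPM) of Mcm2 to Mcm7 summed, Mcm10 and Hells by class, d25 left of d05, for cells with at least 5000 UMIs, with black lines at the medians. The d25 Mid-S cells lie low for Mcm2 to Mcm7 and Hells, 24 of 61 d25 and 39 of 87 d05 Mid-S cells hold no UMI of Mcm10, and the M groups hold 3 d25 and 9 d05 cells.

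Across the 392 cells of both days at this depth, the summed Mcm2 to Mcm7 level followed the S phase score most closely, with Spearman's rho of 0.58, a score that may hold some of these genes. It followed Hells at 0.31 (0.37 in d25 and 0.20 in d05 cells) and the share of contacts between chromosomes at -0.36. It also moved with depth, at -0.24 with the UMIs of a cell. All these points share libraries and the same cell totals, and values for single genes are sparse, so they are given as a description. Mcm10 followed Mcm2 to Mcm7 at 0.18, a weak relation in sparse counts.

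The share of contacts between chromosomes contains no RNA and was used, after the data were seen, as another way to order the cells. Cells of each day were split into 3 groups of nearly equal size by this share. In the lowest group, 1.31% to 7.58% in d25 and 1.69% to 6.30% in d05, lay all cells labelled M and 44 d25 and 26 d05 cells labelled G1. Mcm2 to Mcm7 summed to 508 CPM in the low, 321 in the middle and 263 in the high group of d25, and to 561, 365 and 380 CPM in the same groups of d05. The low group was thus the highest on both days. The M cells held 140 of the 469 UMIs of the d05 low group, and without them the low group stood at 478 CPM in d25 and 454 CPM in d05.

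By gene, 5 of the 8 were higher in the low than in the high contact group of d25 (15.8% of 9575 genes called higher), and 4 in d05 (13.6% of 9049). Mcm4 had 108.9 CPM in the low against 39.4 CPM in the high group of d25, a ratio of 2.77 (1.93 to 4.03), and 114.3 CPM against 64.4 CPM in d05, a ratio of 1.78. Mcm4, Mcm5 and Mcm10 passed the rule on both days, Mcm6 and Hells in d25 and Mcm3 in d05. Without the M cells the same 5 genes passed in d25 (14.4% of genes called higher). In d05 only Mcm3 and Mcm10 then passed (10.5% called higher), with Mcm4 at a ratio of 1.19 and Mcm5 at 1.47. Mcm10 had 122.2 CPM in the low against 72.4 CPM in the high group of d25, and 170 CPM against 85.4 CPM in d05. No gene was lower, with 8.80% of genes in d25 and 9.05% in d05 called lower.

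**Figure D4:**
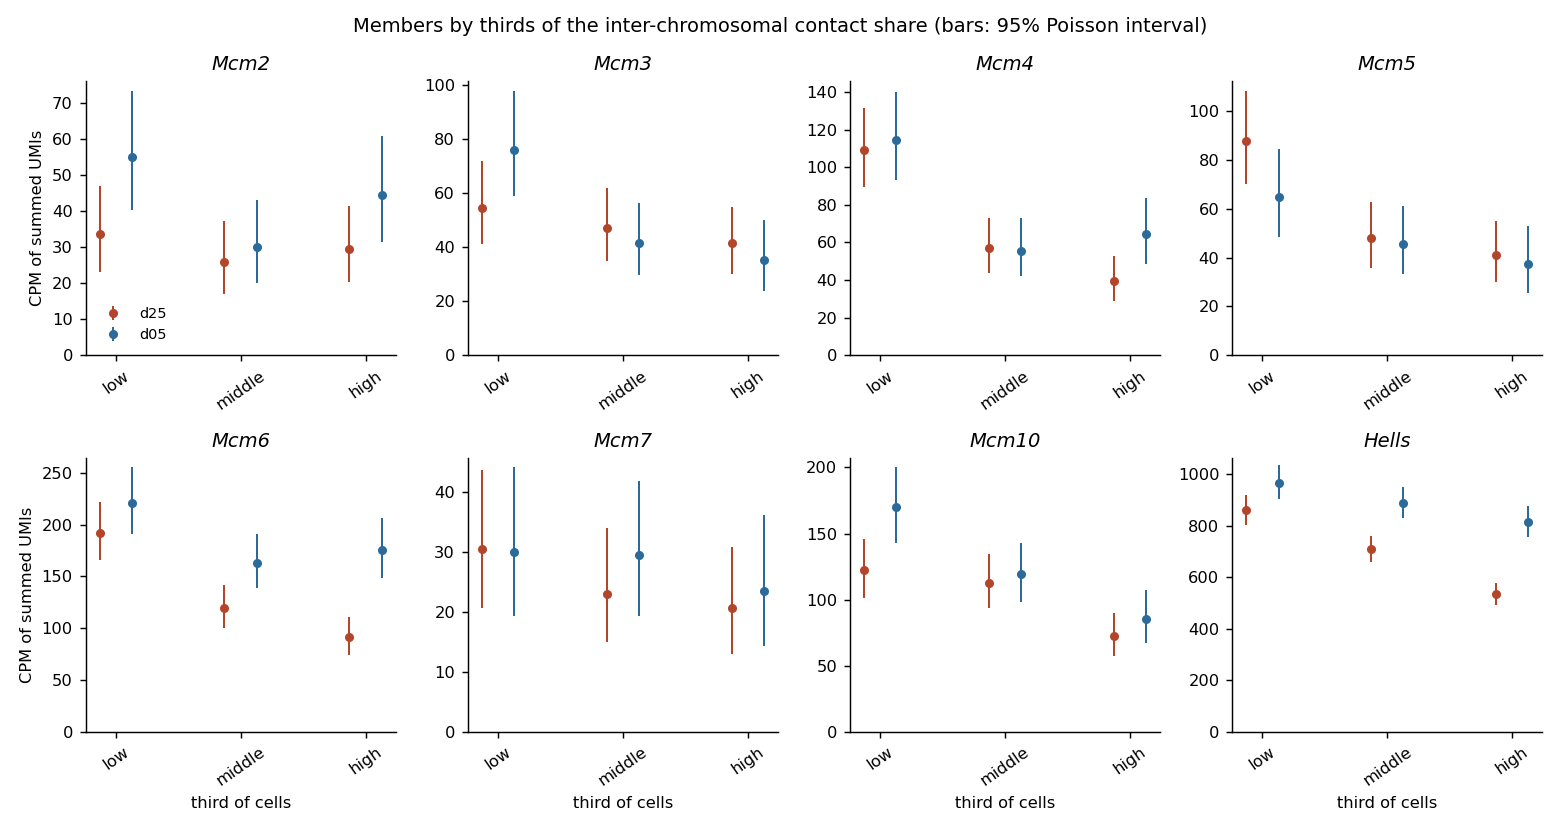
Level of each gene (CPM of summed UMIs) in cells with a low, middle or high share of contacts between chromosomes, d25 left of d05, with 95% Poisson intervals as bars. Mcm4 falls from low to high in d25 (108.9, 57.1 and 39.4 CPM), while Mcm7 lies between 20.6 and 30.5 CPM in all 3 groups of d25.

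The authors' pseudotime, given for cells of the allele table, split the genes less. Among 61 later and 61 earlier d25 cells, Mcm5 was lower in the later ones, at 47.2 CPM against 72.2 CPM (7.55% of 9078 genes called lower and 9.85% higher), and no other gene passed the rule. Among 93 later and 93 earlier d05 cells, no gene passed it, with 8.37% of 10418 genes called higher and 7.14% lower. All 15 d05 cells labelled M lie outside that table.

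The genes followed each other over the day and class groups to different degrees. Over the 10 groups with at least 10 cells, the log2 profile of Mcm4 had a Pearson correlation of 0.93 with the mean of the other genes here, and that of Mcm7 0.53. The remaining 6 lay between 0.76 and 0.88. Among 5523 genes with at least 200 UMIs, the 10 most like the mean profile were Tfrc, Orc1, Cand1, Arid4a, Nap1l1, Dtl, Fmr1, Topors, Paics and Uba1, at correlations between 0.93 and 0.97. Orc1, the ATPase subunit of the origin recognition complex, had 120 CPM in Mid-S against 235.03 CPM in G1 of d25, and 144.7 CPM against 196.3 CPM in d05, where M cells had 615 CPM. Dtl, the substrate receptor of the ligase that degrades Cdt1 in S phase, had 131.7 CPM in Mid-S against 423 CPM in G1 of d25, and 185.4 CPM against 457 CPM in d05. Each of the 10 genes most like the mean profile was highest in d05 M cells, the only M group among those compared. Tfrc, for example, had 253 CPM there and at most 84.6 CPM in the other groups. In d05 M cells 30.3% of all genes were called higher than in G1, and correlations without that group were not computed. The groups share depth and scaling, and these 10 values are a description.

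Of 10 genes of origin recognition and loading, 7 were lower in Mid-S than in G1 in d25 (18.8% of all genes called lower) and 2 in d05 (16.6%), the second a share near that of all genes. In M, 9 of the 10 were higher than in G1 in d25 (35.1% of all genes called higher) and 5 in d05 (30.3%). Mcmbp, which binds the Mcm subunits, had 724 CPM in M against 260 CPM in G1 of d25, and 543 CPM against 268 CPM in d05. Orc3, in contrast, had 94.97 CPM in M against 266 CPM in G1 of d25, and 99.5 CPM against 202.4 CPM in d05. None of the 10 was called between the days over all cells. Orc2 had 174.8 CPM in d25 and 221.01 CPM in d05 cells.

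The remaining relatives of the family, Mcm8, Mcm9 and Mcmdc2, belong to a list of 4 with Mcmbp, of which 1 was lower in d25 and 0 higher, against 25.6% and 21.4% of all genes. Mcm8 and Mcm9, a helicase pair of recombination repair, had 55.6 and 60.5 CPM in d25 and 42.2 and 40.7 CPM in d05 cells. Mcmdc2, a meiotic relative, was the one called, with 10.99 CPM in d25 and 26.4 CPM in d05 cells. The list of G2 and M genes, for comparison, had 3 of 20 lower and 0 higher in d25. In M against G1 it had 8 of 15 measured genes higher in d25 and 11 of 14 in d05, against 35.1% and 30.3% of all genes in d25 and d05.

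Of the genes that activate the helicase, 3 of 13 were lower in d25 than in d05 cells and 1 was higher, against 25.6% of all genes lower and 21.4% higher. Ticrr, the treslin that works with Topbp1 to load Cdc45, had 87.1 CPM in d25 and 243 CPM in d05 cells. Topbp1 itself had 319 CPM in d25 and 349 CPM in d05 cells. Wdhd1, which links the helicase to polymerase alpha, had 158.97 CPM in d25 and 125.9 CPM in d05 cells. In Mid-S against G1, 7 of 12 measured genes were lower in d25 (18.8% of all genes) and 3 of 10 in d05 (16.6%), where 2 were higher (13.7% of all genes called higher).

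Of 25 genes of the fork and of DNA synthesis, 7 were lower in d25 than in d05 cells and 0 were higher, and the share called lower was near the 25.6% of all genes. Pola1, the catalytic subunit of polymerase alpha, had 1254 CPM in d25 and 2190 CPM in d05 cells. In Mid-S, 17 of 23 measured genes were lower than in G1 in d25 (18.8% of all genes) and 10 of 22 in d05 (16.6%). Unlike the helicase genes, Pola1 was not high in M, with 404 CPM in M against 1648 CPM in G1 of d25, and 733 CPM against 2302 CPM in d05. In M, 7 of 21 genes of this list were higher than in G1 and 6 lower in d25 (35.1% and 39.4% of all genes), and 8 were higher and 4 lower in d05 (30.3% and 29.4% of all genes).

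Genes of nucleotide supply and the G1 to S step were lower in Mid-S than in G1 for 11 of 12 in d25 (18.8% of all genes called lower) and 9 of 12 in d05 (16.6%). Rrm2, a subunit of ribonucleotide reductase, had 76.3 CPM in d25 and 121.6 CPM in d05 cells, and it was among the 2 of 12 called lower between the days, against 25.6% of all genes. E2f3, a factor that activates such genes, had 423 CPM in d25 and 383 CPM in d05 cells.

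Of 5 partners of Hells and of maintenance methylation, 4 were lower and 1 higher in d25 than in d05 cells, against 25.6% and 21.4% of all genes. Cdca7, which recruits Hells to chromatin, had 60.1 CPM in d25 and 94.9 CPM in d05 cells, a ratio of 0.633. Its relative Cdca7l had 52.1 CPM in d25 and 12.4 CPM in d05 cells, a ratio of 4.19 (2.87 to 6.29). Uhrf1, which brings Dnmt1 to replicated DNA, had 62.9 CPM in d25 and 105.99 CPM in d05 cells, and Dnmt1, the maintenance methyltransferase, 72.7 CPM in d25 and 110 CPM in d05 cells, the last at a ratio of 0.661, just past the rule. Among cells whose names hold the letter A, a mark of unstated meaning, 3 of the 5 were lower. In Mid-S against G1, 2 of 4 measured genes of this list were lower in d25 (18.8% of all genes), and 2 of 5 were lower and 2 higher in d05 (16.6% and 13.7% of all genes). Hells itself, at a day ratio of 0.781, did not pass the rule.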

How the data were processed

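HiRES libraries of 1 or 2 cells each were grouped by the day in their labels. The expression table the authors deposited holds expected counts, UMIs per gene and cell, of which 11.1% of values above 0 are fractions. The authors' cell tables hold counts of UMIs and contacts, the fraction of contacts between chromosomes, scores for S and G2M genes, pseudotime, classes and labels, per the file headers. Per the submitters' processing notes the build was GRCm38. Not given in the sources used here: aligner, counting tool and use of strand. Of 471 cells in the titles, 406 were in the expression table, and 1101 columns of no sample here were not used. Fractions entered sums as deposited. Only for thinning were they rounded, at random by size. No doublet caller was run.

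Summed UMIs were scaled to CPM. Intervals are 95% and exact, by the Poisson distribution for levels, conditional on the sum of both counts for ratios and Clopper-Pearson for shares. Calls needed a CPM ratio of 1.5 or its inverse and at least 20 UMIs over both groups. Log2 changes added 5 CPM. The design's named genes were all 8 members, up to 4 genes with the most UMIs of each list, and the 10 most alike by profile. Members, lists and rules were chosen with earlier results of these data known. Calls were tested on simulated data only at the full totals of both days, with made changes of well-counted genes larger than the rule. That does not cover calls in small groups, at low counts or near a ratio of 1.5. Protein sequences were not used here. Alternatives covered scaling, pseudocount, minimum, threshold, thinning, letter, batch, class mix and single cells. Python 3.11.15, numpy 2.4.6, pandas 2.3.3, scipy 1.17.1 and matplotlib 3.10.9 were used.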

Additional observations from a re-analysis of the deposited data

How the results depend on the processing

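No paired analysis was possible because the labels number cells and not cultures, so the days share no replicate. A class column in the allele table was the same as the one used for every shared cell, so another class could not be run, and alternatives that left under 5 cells or no measured gene in a group gave no value. Of 780 alternative CPM ratios of single genes, 725 stayed inside the counting interval of the value reported, 53 left it and 2 of a called gene turned direction. These were Mcm10 in M over G1 of d25, at 1.86 with both days summed, and Mcm2 in Mid-S over G1 of d05, at 1.14 after thinning. The cause of each change was not tested unless the setting itself leaves fewer cells, UMIs or genes.

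Between the days, counts of 0 higher and 0 lower genes became 1 lower over mean levels of cells, 1 lower in letter A, 2 lower in batch 2 and 3 lower at a ratio of 1.25. Within classes they became 1 lower in G1, 2 lower in Early-S, 4 lower in Mid-S, and 2 lower with 1 higher in Late-S. Within batch 2 they became 2 higher and 1 lower in G1 and 3 lower in Mid-S. The median log2 change was -0.51 within Mid-S.

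For Early-S over G1 in d25, 6 lower genes became 3 after thinning, 3 at a ratio of 2 and 3 with both days summed, where the median log2 change was -0.42. In d05, 2 lower became 1 after thinning, 1 in letter A, 0 in letter B, 1 at a ratio of 2 and 0 at a minimum of 100 UMIs. For Mid-S over G1 in d25, 7 lower became 2 of 2 measured genes in letter B. In d05, 4 lower became 0 of 2 measured in letter B, 2 in batch 2, 1 at a ratio of 2 and 2 of 4 measured at a minimum of 100 UMIs.

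For Late-S over G1 in d25, 2 higher became 1 after thinning, without the cell with the most UMIs, in letter A, at a ratio of 2 and with both days summed, and 0 at a minimum of 100 UMIs. There, 2 lower became 1 under size factors, over mean levels of cells, at a ratio of 2 and with both days summed, 4 without the cell with the most UMIs and 6 at a ratio of 1.25. In d05, 1 higher became 0 after thinning, at a ratio of 2 and at a minimum of 100 UMIs, and 1 lower became 3 at a ratio of 1.25 and 0 at a ratio of 2.

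For M over G1 in d25, 5 higher became 3 under size factors, over mean levels of cells, in letter A, at a ratio of 2 and at a minimum of 100 UMIs, and 2 without the cell with the most UMIs. There, 1 lower became 2 under size factors and at a ratio of 1.25, 3 without the cell with the most UMIs, and 0 over mean levels of cells, at a ratio of 2 and with both days summed. In d05, 6 higher became 3 of 4 measured after thinning and 2 of 3 measured at a minimum of 100 UMIs. Thinning lowered the share of cells with a UMI below its interval for every gene but Hells in d05, and counting cells from a value of 1 moved none. For cells with few against many contacts between chromosomes in d05, 4 higher became 2 without cells labelled M, and the median log2 change became 0.23.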
